A study of Mus musculus with 8 samples.

Results

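Vacuolar proton pump subunit genes were compared between the renal cortex of SPAK KO mice and that of wild-type (WT) littermates. The 10 genes were taken by name, 5 as isoforms of intercalated cells (Atp6v1g3, Atp6v1c2, Atp6v0d2, Atp6v0a4 and Atp6v1b1) and 5 as ubiquitous subunits (Atp6v1a, Atp6v1b2, Atp6v1c1, Atp6v0d1 and Atp6v0a1), out of 19938 genes measured. Each had exactly 1 probe set whose annotation gave that single symbol. The SPAK KO mice carried a disrupted Stk39, which encodes the kinase SPAK, and both groups were male C57Bl6J mice aged 10 weeks, fed chow with 0.32% NaCl and 1% KCl. The labels give 1 array per mouse from dissected kidney cortex, 4 per genotype. Neither the exons removed from Stk39 nor the cells affected are stated in the labels, and the stated aim was to find genes that act together against renal salt loss when SPAK is missing.

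The vacuolar proton pump, or V-ATPase, is built from a cytosolic V1 sector that splits ATP and a membrane V0 sector that carries protons across the membrane. Nearly every cell uses ubiquitous subunits to acidify lysosomes and endosomes. Intercalated cells of the connecting tubule and collecting duct, the acid-base cells of the distal nephron, place many copies of the pump in the plasma membrane and use additional isoforms of several subunits there. Type A intercalated cells secrete acid through an apical pump, and type B cells secrete bicarbonate with the pump on the opposite membrane.

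Stk39 itself read 7.21, 6.98, 6.79 and 7.10 on SPAK KO arrays 1 to 4, against 8.36, 8.51, 8.60 and 8.11 on WT arrays 1 to 4 (log2 RMA values, as are all levels given here). Some pairs of arrays agreed far more closely than others. Among 6297 genes with a mean above 8, after removal of the median difference, the 6 SPAK KO pairs had 1 to 10 that differed by more than 0.4 and WT 2 with WT 3 had 3, while the other 5 WT pairs had 119 to 228. For this reason WT 2 and WT 3 enter WT means and SDs as their average (n = 3), and for SPAK KO each array is printed with no SD. The labels name separate mice, but arrays this close may not be separate animals, and the p-values from 8 arrays then measure a spread that may be partly technical. Differences and their SE come from the fit to all 8 arrays, so they start from the mean of the 4 WT arrays and not from the WT mean of n = 3. In a limma fit with agreeing arrays counted once, which leaves 3 WT samples and 1 SPAK KO sample assumed to vary like WT, 0 genes were called and 618 had an unadjusted p under 0.05, and the 10 pump genes all had an adjusted p of 0.9998. The array medians over all probe sets were 6.09 to 6.12 in SPAK KO and 6.13 to 6.19 in WT. Markers of proximal tubule, the main cortical segment, were bright on every array (mean log2 value of the 10 genes 12.26 to 12.28 in SPAK KO and 12.21 to 12.27 in WT). The values come without detection calls, so no gene can be placed at 0.

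Of the 5 intercalated-cell isoforms, 4 rose in SPAK KO cortex (limma over all genes and 8 arrays, Benjamini-Hochberg adjusted p under 0.05), whereas 1.39% of all 19938 genes were called higher. They were Atp6v1g3, Atp6v1c2, Atp6v1b1 and Atp6v0d2, by 1.43-, 1.36-, 1.31- and 1.29-fold. Atp6v0a4 was the exception, with a fold of 0.981 and overlapping groups. Of the 5 ubiquitous subunits 0 were called in either direction, against 2.08% of all genes, and 1 of them had an unadjusted p under 0.05, against 19.1% of all genes. The log2 difference, SPAK KO minus WT, had a median of 0.39 over the isoforms and −0.04 over the ubiquitous subunits, with −0.01 over all genes, of which 45.8% had a difference above 0. The 4 isoforms, and the ubiquitous Atp6v0a1, lay above every WT array on every SPAK KO array, as did 6.90% of all genes. Counting Atp6v1b2, which lay below, 6 of the 10 genes had groups without overlap, against 12.6% of all genes. In whole cortex, more cells of a type and more RNA per cell cannot be told apart.

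**Figure D1:**
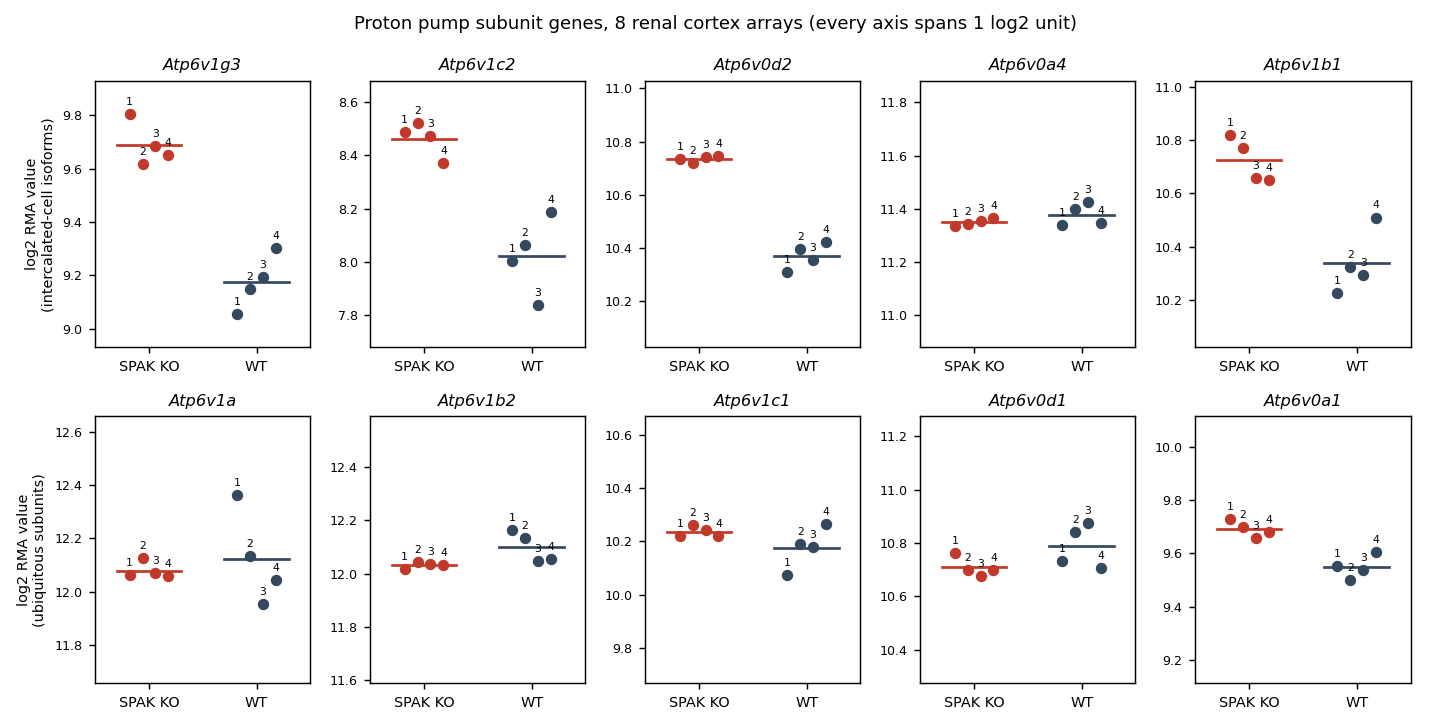
Log2 RMA values (vertical axis) of the 10 pump genes on the 4 SPAK KO arrays (left, red) and the 4 WT arrays (right, blue), with array numbers beside the points and a line at the mean of the 4 arrays; the upper row holds intercalated-cell isoforms and the lower row ubiquitous subunits. The red and blue points are apart for Atp6v1g3, Atp6v1c2, Atp6v0d2 and Atp6v1b1 and overlap for Atp6v0a4. In the lower row they are apart for Atp6v0a1 (SPAK KO above) and, narrowly, for Atp6v1b2 (SPAK KO below), and overlap for the rest.

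Sequence upstream of the gene start was looked at because isoforms that moved together and one that did not could be set side by side. RefSeq windows on GRCm38.p6, from 250 bases before to 50 after the start, were found for 7 of the 10 genes, namely 4 isoforms and 3 ubiquitous subunits. Atp6v0d2, Atp6v1b2 and Atp6v1c1 were not matched. The letters TGTTTAC, a core bound by forkhead factors such as FOXI1, the master regulator of intercalated cells, were searched on both strands. So were CACGTG, the E-box core, and GTCACGTG, the longer form seen in elements bound by the lysosomal regulator TFEB, which contains the E-box core. The 250 bases before the start are printed for Atp6v1g3 (chr1:138273488-138273737, + strand), Atp6v1c2 (chr12:17324731-17324980, − strand) and Atp6v1b1 (chr6:83742767-83743016, + strand), which rose, for Atp6v0a4 (chr6:38124587-38124836, − strand), which was not called, and for the ubiquitous Atp6v1a (chr16:44139260-44139509, − strand). Capitals mark motif letters:
Atp6v1g3: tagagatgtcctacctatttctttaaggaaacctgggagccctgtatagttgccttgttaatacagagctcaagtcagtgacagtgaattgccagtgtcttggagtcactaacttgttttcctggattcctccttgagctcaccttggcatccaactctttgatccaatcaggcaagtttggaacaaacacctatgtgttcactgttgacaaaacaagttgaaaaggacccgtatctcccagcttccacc
Atp6v1c2: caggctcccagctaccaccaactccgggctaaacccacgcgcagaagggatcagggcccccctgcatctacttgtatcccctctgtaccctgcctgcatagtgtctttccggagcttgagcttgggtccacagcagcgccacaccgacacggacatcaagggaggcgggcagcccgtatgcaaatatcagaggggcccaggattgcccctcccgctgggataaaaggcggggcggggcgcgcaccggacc
Atp6v1b1: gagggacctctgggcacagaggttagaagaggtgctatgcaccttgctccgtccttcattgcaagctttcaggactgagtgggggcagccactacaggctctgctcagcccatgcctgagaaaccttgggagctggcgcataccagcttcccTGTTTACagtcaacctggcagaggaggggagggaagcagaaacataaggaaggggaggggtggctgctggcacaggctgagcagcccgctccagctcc
Atp6v0a4: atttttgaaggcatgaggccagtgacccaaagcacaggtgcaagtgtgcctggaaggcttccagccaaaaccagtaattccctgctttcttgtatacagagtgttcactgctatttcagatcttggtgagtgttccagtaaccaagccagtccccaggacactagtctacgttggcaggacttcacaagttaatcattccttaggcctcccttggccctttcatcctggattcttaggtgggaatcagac
Atp6v1a: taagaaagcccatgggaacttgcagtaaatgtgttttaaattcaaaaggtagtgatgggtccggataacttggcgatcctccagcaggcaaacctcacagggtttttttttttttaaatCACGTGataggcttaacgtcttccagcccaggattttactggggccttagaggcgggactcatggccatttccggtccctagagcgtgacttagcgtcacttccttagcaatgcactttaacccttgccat

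The forkhead letters stood in 1 of the 7 windows, that of Atp6v1b1, from position −98 relative to the start, and in 3.65% of all 32851 mouse windows. The E-box core stood in the windows of Atp6v1a, from position −131, and Atp6v0d1, from position −3, and in 7.15% of all windows. In Atp6v0d1 it was part of the longer form, which 2.25% of all windows held. Among the isoforms, the windows of Atp6v1g3, Atp6v1c2 and Atp6v0a4 held none of these exact letters. Variants of the letters were not searched, so other forms of such sites may be present. The matches are of letters only, and binding was not measured.

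In the V1 sector, the A and B subunits form the ring that splits ATP. Atp6v1b1 encodes the B1 isoform, and in humans loss of B1 causes distal renal tubular acidosis with deafness. It read 10.82, 10.77, 10.66 and 10.65 on SPAK KO arrays 1 to 4, against 10.23, 10.32, 10.29 and 10.51 on WT arrays 1 to 4 (probe set 10539449). All SPAK KO values were above all WT values, with WT 4 nearest to them. The WT mean was 10.35 ± 0.15 (SD, n = 3). In the 8-array fit SPAK KO exceeded WT by 0.39 ± 0.07 (moderated SE; adjusted p = 0.0229 in limma), the least firm of the 4 calls. It ended when SPAK KO 1, 2, 3 or 4 was left out (adjusted p = 0.0803, 0.0693, 0.0506 and 0.0513), and without WT 2 (0.0678) or WT 3 (0.0628), while the difference stayed between 0.35 and 0.44.

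Atp6v1b2 encodes the ubiquitous B2 isoform. Its values were 12.02, 12.05, 12.04 and 12.03 on the SPAK KO arrays, against 12.16, 12.13, 12.05 and 12.06 on the WT arrays (probe set 10572146). The SPAK KO arrays all lay below the WT arrays, as in 5.71% of all genes, by a narrow gap to WT 3. The difference of −0.07 ± 0.05 did not pass (limma adjusted p = 0.464; 95% interval −0.17 to 0.04). Atp6v1a encodes the catalytic A subunit, which is shared by pumps of all cells. It read 12.06, 12.12, 12.07 and 12.06 in SPAK KO and 12.36, 12.13, 11.95 and 12.04 in WT (probe set 10439566). WT 1 was high and WT 3 low, on either side of the SPAK KO arrays. The difference was −0.04 ± 0.08 (adjusted p = 0.795; 95% interval −0.22 to 0.13), without WT 1 it was 0.04, and with arrays centred on their median over all probe sets it was 0.01.

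Subunit C lies where V1 meets V0 and takes part in their reversible assembly. Atp6v1c2 encodes the C2 isoform and was measured at 8.49, 8.52, 8.47 and 8.37 on SPAK KO arrays 1 to 4, against 8.003, 8.06, 7.84 and 8.19 on WT arrays 1 to 4 (probe set 10399559). WT 4 was again the highest WT array and WT 3 the lowest, and the groups did not overlap. The WT mean was 8.05 ± 0.12 (SD, n = 3). SPAK KO was higher in the 8-array fit by 0.44 ± 0.07 (SE; adjusted p = 0.0162 in limma). This call ended without SPAK KO 1, 2 or 3 (adjusted p = 0.0633, 0.0544 and 0.0531), where the difference was 0.43, 0.42 and 0.44. With agreeing arrays counted once it was 0.42. Atp6v1c1, the ubiquitous C1 gene, read 10.22, 10.26, 10.24 and 10.22 in SPAK KO and 10.07, 10.19, 10.18 and 10.26 in WT (probe set 10423805). Its groups overlapped, and the difference of 0.06 ± 0.05 did not pass (adjusted p = 0.566; 95% interval −0.06 to 0.17).

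Subunit G belongs to the peripheral stalks that hold the sectors together. Atp6v1g3, the G3 gene, had the largest difference of the 10. It read 9.80, 9.62, 9.69 and 9.65 on SPAK KO arrays 1 to 4, against 9.05, 9.15, 9.19 and 9.30 on WT arrays 1 to 4 (probe set 10350343). The lowest SPAK KO array stood clear of the highest WT array, WT 4. The WT mean was 9.18 ± 0.12 (SD, n = 3). In the fit to 8 arrays SPAK KO was higher by 0.52 ± 0.07 (SE; adjusted p = 0.0046 in limma), and the gene passed in all 8 leave-one-out fits, with differences of 0.48 to 0.56. By size of the difference it ranked 117 among the 19938 genes. The ubiquitous G1 gene, Atp6v1g1, gave 0.08 ± 0.05 and did not pass (adjusted p = 0.391).

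In the V0 sector, subunit a holds the half-channels through which protons pass. Atp6v0a4 encodes the a4 isoform of intercalated cells, which in the mouse is also found in the proximal tubule, and human mutations in it cause distal renal tubular acidosis. Its values were 11.34, 11.34, 11.36 and 11.36 in SPAK KO and 11.34, 11.40, 11.42 and 11.35 in WT (probe set 10544036). The SPAK KO arrays lay inside the range of the WT arrays or at its low edge. The difference was −0.03 ± 0.04 (limma adjusted p = 0.772), its 95% interval of −0.13 to 0.07 left out the differences of the other 4 isoforms, and its sign turned (0.03) when arrays were centred on their median over all probe sets. Atp6v0a1, the gene of the ubiquitous a1, read 9.73, 9.70, 9.66 and 9.68 in SPAK KO and 9.55, 9.50, 9.54 and 9.60 in WT (probe set 10381187). It was the ubiquitous subunit gene with the largest difference, and its groups did not overlap. The difference of 0.14 ± 0.05 had an unadjusted p of 0.0110 and did not pass over all genes (adjusted p = 0.139; 95% interval 0.04 to 0.25).

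Subunit d sits between the rotating ring of V0 and the stalk of V1. Atp6v0d2, whose product d2 is known from kidney and from osteoclasts and other macrophage-lineage cells, read 10.73, 10.72, 10.74 and 10.75 on SPAK KO arrays 1 to 4, against 10.31, 10.40, 10.36 and 10.42 on WT arrays 1 to 4 (probe set 10511779). This was the tightest gene of the 4 that rose, and the groups stood far apart for their spread. The WT mean was 10.37 ± 0.06 (SD, n = 3). By the 8-array fit SPAK KO was higher by 0.36 ± 0.05 (SE; adjusted p = 0.0046 in limma), and the gene passed in all 8 leave-one-out fits, at 0.34 to 0.38. Of 10 immune cell genes, 2 had an unadjusted p under 0.05, 0 were called higher and 1 lower. Over all genes the shares were 19.1%, 1.39% and 0.682%. The 1 called lower was Cd3e, a T cell receptor component, at −0.31 ± 0.06 (adjusted p = 0.0443), a call that held in 1 of those 8 fits. The summed level of the 10 immune cell genes on the linear scale was 1202 to 1277 in SPAK KO and 1227 to 1303 in WT. Atp6v0d1, the ubiquitous d1 gene, read 10.76, 10.70, 10.68 and 10.70 in SPAK KO and 10.73, 10.84, 10.87 and 10.71 in WT (probe set 10581289). The groups overlapped and the difference of −0.08 ± 0.05 did not pass (adjusted p = 0.448; 95% interval −0.20 to 0.04).

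Whether an isoform changed differently from its ubiquitous partner was tested on the log2 value of the isoform minus that of the partner, array by array, for 4 pairs. Because the probes differ, the level of such a difference has no meaning of its own, and only its change between genotypes was read. For Atp6v1b1 minus Atp6v1b2 it was −1.20, −1.27, −1.38 and −1.38 in SPAK KO and −1.94, −1.81, −1.76 and −1.55 in WT, a change of 0.45. Atp6v1c2 minus Atp6v1c1 gave −1.73, −1.74, −1.77 and −1.85 in SPAK KO and −2.07, −2.12, −2.34 and −2.08 in WT, a change of 0.38. Atp6v0d2 minus Atp6v0d1 gave −0.03, 0.02, 0.06 and 0.05 in SPAK KO and −0.42, −0.45, −0.52 and −0.28 in WT, a change of 0.44. In these 3 pairs every SPAK KO array was above every WT array, so the isoform increased relative to its partner. The a subunits went the other way, with the ubiquitous Atp6v0a1 higher by 0.14 and Atp6v0a4 near WT at −0.03, neither of them called. Atp6v0a4 minus Atp6v0a1 was 1.61, 1.64, 1.70 and 1.69 in SPAK KO and 1.79, 1.90, 1.89 and 1.75 in WT, a change of −0.17, with every SPAK KO array below every WT array. Each of the 4 pairs had a two-sided exact permutation p of 0.0286, which is 0.0286 after Benjamini-Hochberg adjustment over the 4 pairs and the smallest that 4 arrays against 4 can give. Without any 1 of the SPAK KO arrays the adjusted p was 0.0571 in every pair, and without any 1 of the WT arrays it was 0.0286. Before adjustment, the exact p without a SPAK KO array was 0.0571 in the B and a pairs and 0.0286 in the C and d pairs. The test takes the 8 arrays as separate animals. It reuses the values behind the single-gene differences, and the members were chosen with earlier results of these data known, so it is no separate support. Of single genes, 12.6% had groups without overlap in either direction. With agreeing arrays counted once, the changes were 0.45, 0.35, 0.42 and −0.15, with an exact p of 0.25 in the B, C and d pairs and 0.5 in the a pair, where 1 sample against 3 cannot give less than 0.25.

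**Figure D2:**
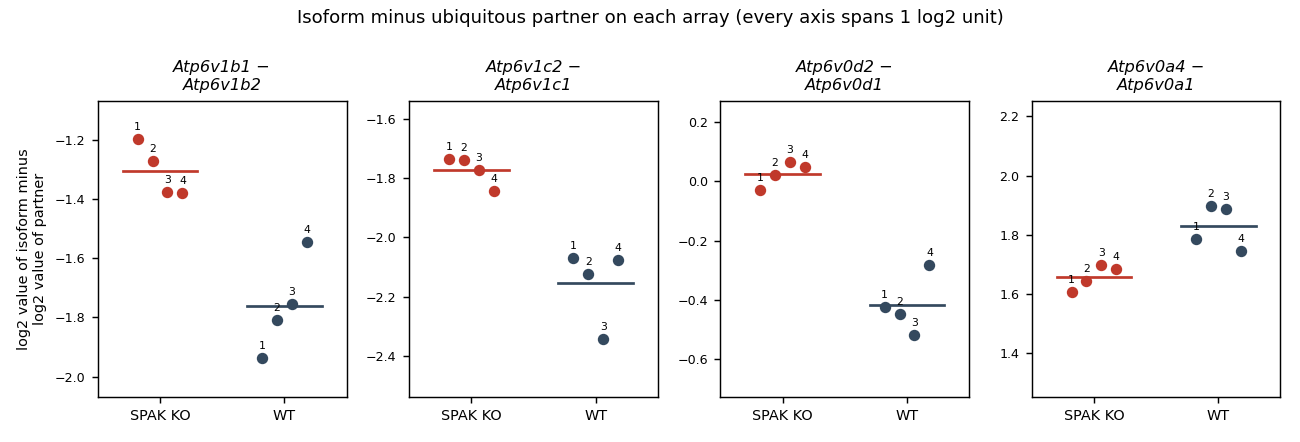
Log2 value of an intercalated-cell isoform minus the log2 value of its ubiquitous partner (vertical axis) on the 4 SPAK KO arrays (left, red) and the 4 WT arrays (right, blue), with array numbers and a line at the mean of the 4 arrays. SPAK KO lies above WT in the B, C and d pairs (changes of 0.45, 0.38 and 0.44) and below WT in the a pair (−0.17).

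Of 15 further subunit and accessory subunit genes, 14 were measured, 0 were called higher and 0 lower (limma, adjusted p under 0.05), and 2 had an unadjusted p under 0.05, a share near the 19.1% of all genes. Their differences ran from −0.17 to 0.09 with a median of 0.01, and 7 of 14 were above 0. The smallest p-values belonged to Atp6v0b, a proteolipid of the rotating ring, at −0.17 ± 0.05 (adjusted p = 0.112), and Atp6v0a2, the a2 gene of Golgi and endosomes, at −0.16 ± 0.05 (adjusted p = 0.124). Atp6v0b read 11.02, 11.16, 11.12 and 11.07 in SPAK KO and 11.30, 11.25, 11.27 and 11.22 in WT, without overlap. Of 12 genes for assembly and regulation of the pump, 1 rose, Tldc2, whose product belongs to the TLDc family, several members of which bind the pump. It read 9.54, 9.65, 9.52 and 9.52 in SPAK KO and 9.15, 8.99, 9.06 and 9.40 in WT, a difference of 0.41 ± 0.08 (adjusted p = 0.0402) that passed in just 1 of the 8 leave-one-out fits. Over those 12 genes the median was 0.05, and 10 had a difference above 0. Of all genes, 1.39% were called higher and 45.8% had a difference above 0. Of 16 lysosomal genes 14 were measured and 0 called, with a median of 0.03 and differences from −0.11 to 0.11, and 0 of the 14 had an unadjusted p under 0.05. Psap, the precursor of the saposins, gave −0.11 ± 0.05 and Npc2, a lysosomal cholesterol carrier, 0.11 ± 0.05 (adjusted p = 0.276 and 0.281). Their summed linear level was 43348 to 44804 in SPAK KO and 42017 to 44928 in WT.

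**Figure D3:**
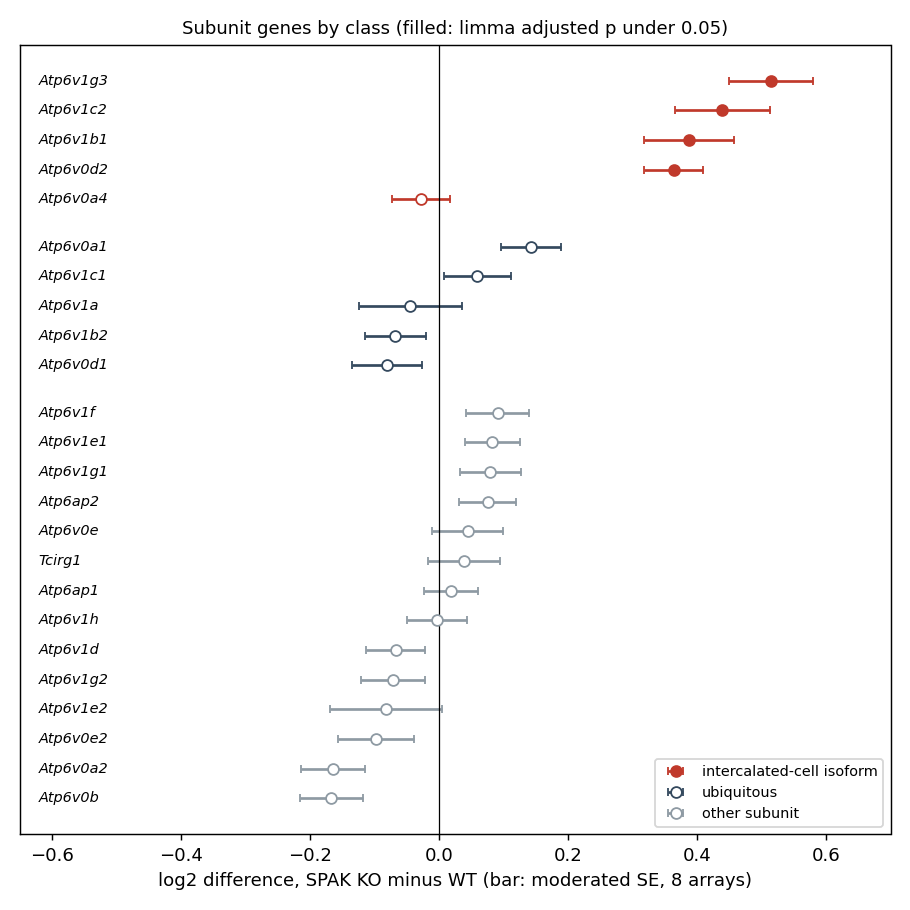
Log2 difference, SPAK KO minus WT (horizontal axis), of 24 pump subunit genes grouped as intercalated-cell isoforms, ubiquitous subunits and other subunits; bars are the moderated SE of the fit over 8 arrays and filled points passed at an adjusted p under 0.05. The 4 filled points are isoforms, between 0.36 and 0.52, and the remaining subunits lie between −0.17 and 0.14.

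Of 18 markers outside the pump, 5 rose and 0 fell, 13 had an unadjusted p under 0.05, 17 had a difference above 0, and in 11 every SPAK KO array was above every WT array, with a median difference of 0.25. Over all genes the shares were 1.39% called higher, 0.682% called lower, 19.1% with such a p, 45.8% above 0 and 6.90% with every SPAK KO array above. The 5 were Hepacam2, an adhesion molecule gene, at 0.68 ± 0.06 (limma adjusted p = 0.0012), the bicarbonate exchanger gene Slc26a4 at 0.65 ± 0.08, the 2-oxoglutarate receptor gene Oxgr1 at 0.58 ± 0.06, the receptor kinase gene Insrr at 0.51 ± 0.10 and the ammonia channel gene Rhbg at 0.31 ± 0.05. Hepacam2 read 8.45, 8.35, 8.37 and 8.49 in SPAK KO and 7.70, 7.70, 7.66 and 7.89 in WT. Foxi1, a transcription factor gene of intercalated cells, read 8.94, 8.89, 8.85 and 8.88 in SPAK KO and 8.26, 8.46, 8.49 and 8.83 in WT. Its groups did not overlap, but WT 4 came close to SPAK KO, and the difference of 0.38 ± 0.10 did not pass (adjusted p = 0.0881). Slc4a1, the chloride/bicarbonate exchanger gene of type A cells, was the 1 marker below 0, at −0.15 ± 0.11 (adjusted p = 0.509), with 8.82, 8.77, 8.79 and 8.74 in SPAK KO and 8.61, 9.21, 9.09 and 8.80 in WT. The summed linear level of the 18 markers, in which the brightest genes weigh most, was 16384 to 16605 in SPAK KO and 12884 to 14980 in WT. The part of cell number in the differences of the pump genes was not tested.

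**Figure D4:**
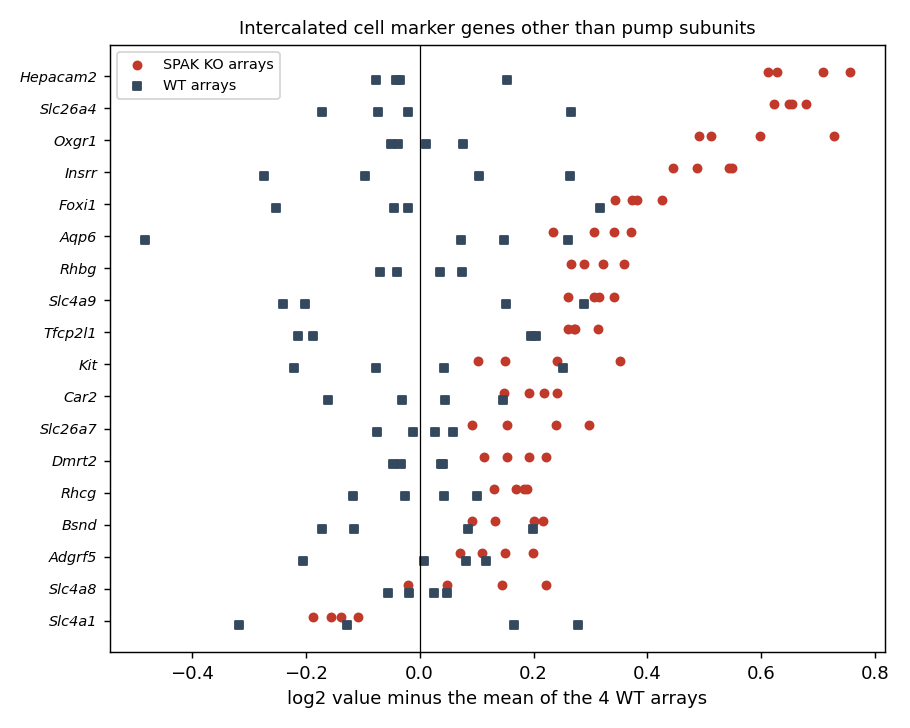
Log2 value minus the mean of the 4 WT arrays (horizontal axis) for 18 intercalated cell markers other than pump subunits, with the 4 SPAK KO arrays as red circles and the 4 WT arrays as blue squares. For 11 markers, among them Hepacam2 and Slc26a4, all circles lie right of all squares, and for Slc4a1 they lie among the squares.

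Markers of neighbouring cells are given beside these values. Of 9 principal cell genes, 1 rose, Scnn1b, a sodium channel subunit gene, at 0.28 ± 0.05 (adjusted p = 0.0269), and 2 fell, the water channel genes Aqp4 at −0.35 ± 0.07 (adjusted p = 0.0439) and Aqp2 at −0.29 ± 0.06 (adjusted p = 0.0447). These calls held in 2, 1 and 1 of the 8 leave-one-out fits by limma. In all, 6 of the 9 had an unadjusted p under 0.05 and 7 a difference above 0. Over all genes, 1.39% were called higher, 0.682% were called lower, 19.1% had such a p and 45.8% lay above 0. The list's median was 0.06 and its summed level 7985 to 8231 in SPAK KO and 7051 to 7885 in WT. Of 10 proximal tubule genes, 1 rose, Aqp1, a water channel gene, by 0.34 ± 0.06 (adjusted p = 0.0164), in 5 of those 8 fits. Of the 10, 0 fell, 3 had an unadjusted p under 0.05 and 5 a difference above 0. The median was 0.02, with summed levels of 57944 to 58316 in SPAK KO and 55848 to 57493 in WT. Of 5 medullary genes 4 were measured and 0 called, with 2 at an unadjusted p under 0.05, a median of 0.03 and summed levels of 3017 to 3096 in SPAK KO and 2554 to 2933 in WT. Slc14a2, a urea transporter gene, gave −0.21 ± 0.05 and the taurine transporter gene Slc6a6 0.17 ± 0.06 (adjusted p = 0.0821 and 0.168). Slc6a6 was the brightest of the 4, at 11.26 to 11.29 in SPAK KO and 10.96 to 11.21 in WT. The summed medullary level therefore mostly follows this gene. What share of the pump differences goes with these cells was not tested.

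The mean of the 5 isoforms was 10.24, 10.19, 10.18 and 10.16 on SPAK KO arrays 1 to 4, against 9.79, 9.87, 9.82 and 9.95 on WT arrays 1 to 4. That of the 5 ubiquitous genes was 10.96, 10.97, 10.94 and 10.94 on the SPAK KO arrays, against 10.98, 10.96, 10.92 and 10.93 on the WT arrays. Among 11991 other genes with a mean of at least 6, the 5 whose pattern over the 8 arrays was most like the isoform mean were Aldh1l1, a folate enzyme (Pearson r = 0.991), the dicarboxylate transporter gene Slc13a2 (0.990), Id1, an inhibitor of helix-loop-helix factors (0.987), Gstp1, a glutathione transferase (0.984), and the keratin gene Krt7 (0.983). The points share 2 genotypes and agreeing arrays, so each such r mostly repeats the gap between genotypes. All 5 of these genes were higher on every SPAK KO array than on any WT array.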

How the data were processed

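The authors deposited log2 values for every probe set, and the submitters' processing notes name RMA and Affymetrix Expression Console; the software version and genome build are not given in the sources used here. Labelling used 6 µg of RNA, per the labels' protocols. The table held 35556 probe sets. Names came from the platform annotation, where 21789 had exactly 1 symbol, and each of 19938 genes took its probe set with the highest mean. SPAK KO was compared with WT by limma 3.58.1 in R 4.3.3 (lmFit and eBayes, genotype only, 8 arrays), with Benjamini-Hochberg adjustment over all genes and a call at an adjusted p under 0.05; the script was tested on simulated data. Isoform pairs used a two-sided exact permutation test. In all, 18 other settings were tried, with statmod 1.5.0 for the robust one. Members and gene lists were chosen with earlier results of these data known. Named were the 10 members, Stk39, up to 6 called genes per list (otherwise the 2 with the smallest p) and the 5 genes most like the isoform mean; Foxi1, Slc4a1 and Atp6v1g1 were added after their values were seen. The number of arrays limits the precision. Summed levels add unlogged values over a list, so the brightest genes of the list weigh most.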

Additional observations from a re-analysis of the deposited data

Results flagged for a closer look

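Among the genes and isoform pairs named, 74 groups of 4 arrays were examined for a single array far from the others, and 1 stood out, where about 5% would by chance. Aqp4, a water channel gene of principal cells, read 5.75 on WT 4, against 5.48 to 5.50 on the other WT arrays, and its gap was 0.948 of the group's range.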

How the results depend on the processing

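The numbers of genes called higher and lower, 278 and 136, became 673 and 88 with arrays centred on their median over all probe sets (added after seeing the data), 526 and 241 with trend and robust options, 175 and 78 with WT 2 and WT 3 averaged, and 0 and 0 with agreeing arrays counted once, where 618 genes had an unadjusted p under 0.05 by limma. With genes of a mean under 6 left out, 462 were higher. Leaving out 1 array gave 106 to 407 higher and 50 to 218 lower. Replicate numbers did not pair the samples (correlations of deviations −0.13 to 0.13), and with the replicate number as a block 129 were higher and 45 lower. Of the intercalated-cell isoforms, 4 were called in the 8-array fit, 2 with the block (Atp6v1g3 and Atp6v0d2), 3 with WT 2 and WT 3 averaged, 0 with agreeing arrays counted once and 2 to 4 when 1 array was left out; the other 7 settings kept all 4. No ubiquitous member was called in any of the 18 settings. Atp6v0a1 came nearest, at a limma adjusted p of 0.0521 with centring over all probe sets. It was 0.0677 with trend and robust options and 0.0684 with genes of a mean under 6 left out. Signs turned for Atp6v0a4 (0.031) and Atp6v1a (0.014) with centring over all probe sets, and for Atp6v1a without WT 1 (0.035; −0.10 to 0.035 over all 8 arrays left out in turn). The changes within isoform pairs kept their direction in all 14 settings run for them. The mean of all probe sets of a gene could move neither these changes nor the members' differences, since each member had 1 probe set. With 1 array left out the pair changes were 0.40 to 0.53 for B, 0.32 to 0.41 for C, 0.41 to 0.49 for d and −0.20 to −0.15 for a, with an adjusted exact p of 0.0571 without 1 SPAK KO array. As paired differences by replicate number, the block leaves the sizes as they were, and 4 pairs cannot give an exact p under 0.125. Causes were not tested. Without detection calls, how far dim genes lie above background is unknown.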

Other observations

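WT 4 was the highest of the 4 WT arrays for each of the 4 isoforms that rose, and for 10 of the 18 other intercalated cell markers, against 23.5% of all genes. This was noticed after the values were seen, and the 4 isoforms share their arrays, so they are not separate observations. Without WT 4 the difference of Atp6v1b1 was 0.44 and that of Atp6v1g3 0.56, the highest among the fits that left out 1 array for both. Leaving out the highest WT array must raise the difference, so these values add no separate observation.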
